A study of Mus musculus with 19 samples.

Results

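This comparison set 4 libraries of plantaris tendon from Scx- mice given tamoxifen and exposed to a growth stimulus for 14 days against 3 libraries of plantaris tendon from control mice, which were Scx+, had no tamoxifen and had no growth stimulus. The 7 libraries were taken by their labels from the 19 of the study. The other 12 libraries came from Scx+ mice after 7 or 14 days of the stimulus and from Scx- mice after 7 days, 4 of each, all given tamoxifen. The mice called Scx- carry a targeted deletion of the scleraxis gene, as the title of the study has it. The growth stimulus, the tamoxifen and the deletion all separate the 4 Scx- libraries from the 3 controls, and the groups hold no Scx- tendon without the stimulus, so the 3 cannot be told apart in this comparison. Alleles, Cre driver, strain, sex, age and the kind of stimulus are not given in the labels. Whether the replicates are different mice is not in the labels, so the p-values reflect only the spread among these libraries, which may be technical.

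Tendon joins muscle to bone and consists mostly of type I collagen fibrils laid down by tenocytes. Scleraxis is a basic helix-loop-helix transcription factor of tendon progenitors and tenocytes that binds the short DNA motif called the E-box and drives genes such as Tnmd, Col1a1 and Fmod. The plantaris is a slender tendon of the hindlimb, and in an adult animal that is put under mechanical load it grows by adding cells and matrix at its surface, with inflammation early on. Matrix growth needs collagen chains, the enzymes that fold, trim and crosslink them, proteoglycans that set fibril width, and metalloproteinases that remodel what is already there.

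The sequence before the start of 4 genes named in the results is shown with its E-boxes in capitals. Each is the 250 bases directly before the RefSeq gene start, outside the transcript, on the plus strand of build GRCm38.p6. The motif searched was CANNTG, which reads in the same form on both strands, so that 1 search covers them both. Mmp13, the collagenase with the largest rise among the genes named by rule, lies at chr9:7272264-7272513 with its E-box beginning 192 bases before the start. Fmod, a fibril-binding proteoglycan and a known scleraxis target, lies at chr1:134037004-134037253 with its E-box 189 bases before the start. Chad, a tendon and cartilage matrix protein that fell, lies at chr11:94564797-94565046 with its E-box 49 bases before the start. Myh4, the fast myosin heavy chain that fell, lies at chr11:67237562-67237811 with E-boxes 221 and 67 bases before the start.
Mmp13: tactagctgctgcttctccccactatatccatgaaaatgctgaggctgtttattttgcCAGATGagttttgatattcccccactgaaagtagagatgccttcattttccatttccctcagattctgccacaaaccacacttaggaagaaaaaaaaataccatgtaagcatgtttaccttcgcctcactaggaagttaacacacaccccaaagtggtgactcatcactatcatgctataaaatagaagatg
Fmod: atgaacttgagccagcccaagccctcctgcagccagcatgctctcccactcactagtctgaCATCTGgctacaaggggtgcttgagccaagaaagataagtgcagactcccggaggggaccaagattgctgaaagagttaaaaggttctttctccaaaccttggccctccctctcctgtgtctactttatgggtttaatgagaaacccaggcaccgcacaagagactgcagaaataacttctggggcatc
Chad: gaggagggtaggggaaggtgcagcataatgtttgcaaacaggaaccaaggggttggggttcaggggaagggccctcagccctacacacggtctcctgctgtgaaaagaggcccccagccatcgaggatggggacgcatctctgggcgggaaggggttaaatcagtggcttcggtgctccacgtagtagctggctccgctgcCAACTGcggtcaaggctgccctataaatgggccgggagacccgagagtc
Myh4: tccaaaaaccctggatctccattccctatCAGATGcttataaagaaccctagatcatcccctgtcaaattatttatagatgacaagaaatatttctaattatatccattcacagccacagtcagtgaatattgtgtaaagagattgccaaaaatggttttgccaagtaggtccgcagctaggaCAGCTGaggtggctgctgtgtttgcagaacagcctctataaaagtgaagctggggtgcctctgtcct
Of 32851 such promoter windows in the RefSeq table, 21753 (66.2%) held at least 1 CANNTG, with a mean of 1.16 per window. A match is a description of these letters and no evidence of binding.

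The deposited values are scaled signals per gene and not read counts, so the depth in reads is unknown. Here they were rescaled so that the typical gene has the same level in every library, and a value below is such a rescaled value, given for replicates 1 to 4 of Scx- day 14 and 1 to 3 of the controls in that order. Values depend on gene length and are compared only within a gene. A change is a difference of log2(value + 2), Scx- day 14 minus control, with its standard error from limma, and a gene was said to rise or fall where limma's Benjamini-Hochberg adjusted p over all tested genes was under 0.05. The summed deposited signal was 36600000 to 48000000 in the Scx- day 14 libraries and 67800000 to 79800000 in the controls. Skeletal muscle fibre genes took 17.1, 19.7, 4.69 and 4.47% of it in the Scx- day 14 libraries, against 25.1, 30.1 and 25.9% in the controls. Muscle RNA was thus in every library, lower in the Scx- day 14 group, and within that group split between replicates 1 and 2 and replicates 3 and 4. Its part in the results was not tested. A fit with the muscle level as a covariate and a fit without replicates 1 and 2 are given below. The muscle level is the mean log2(value + 2) over the muscle list, 15.66 ± 1.52 in Scx- day 14 and 15.63 ± 0.49 in controls (SD). It hardly differs between these groups, so that fit cannot even out their muscle shares. The fit without replicates 1 and 2 keeps the Scx- day 14 libraries with the least muscle signal. Pearson correlations of log2 values were 0.923 to 0.968 within Scx- day 14, 0.926 to 0.945 within the controls and 0.845 to 0.906 between them.

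**Figure D1:**
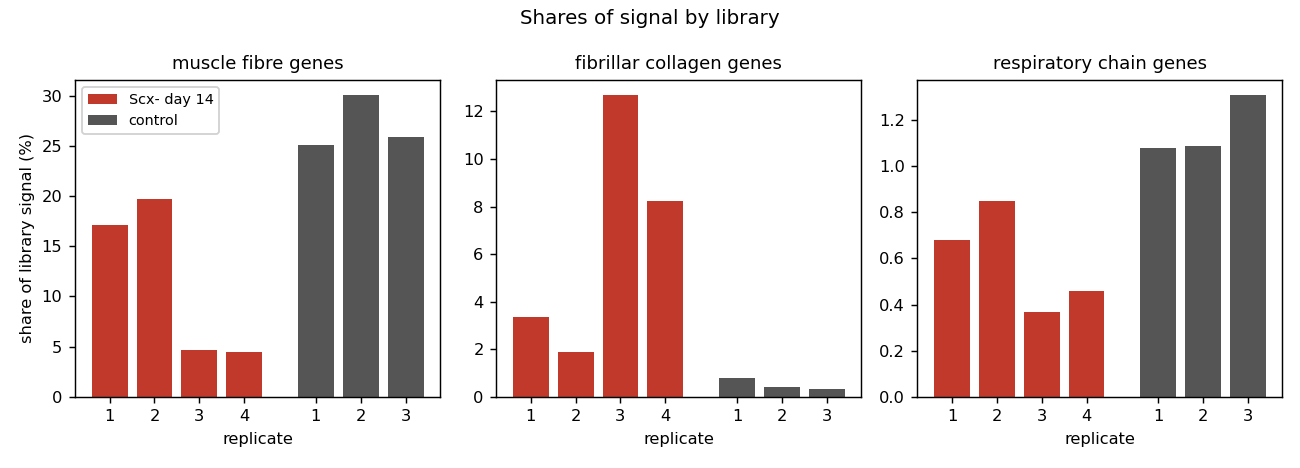
Share of each library's summed signal (%) taken by 3 gene lists, 1 bar per library, Scx- day 14 replicates 1 to 4 in red and control replicates 1 to 3 in grey. Fibrillar collagen genes took 1.9 to 12.7% in Scx- day 14 libraries and 0.329 to 0.78% in controls, while muscle fibre genes and respiratory chain genes took less in Scx- day 14 libraries than in any control.

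Of 24972 genes listed, 16625 reached a rescaled level of 10 in 3 or more libraries and were tested. In Scx- day 14, 4244 genes rose (25.5%) and 3047 fell (18.3%), 7291 in all (43.9%), and the median change over all tested genes was 0.12. These shares are the background against which each list below is read. The balance of rises and falls depended on the scaling. Scaling to library totals gave 7209 higher and 1359 lower, 84.1% of the calls being higher, with a median change of 0.58. The values as deposited gave 2783 higher and 5128 lower, 35.2% higher, with a median of -0.2. In the scaling used here 58.2% of the calls were higher. Without Scx- day 14 replicates 1 and 2, 4759 genes were higher and 3772 lower. In the 7 libraries compared, groups did not overlap and Scx- day 14 was higher for 3448 genes (20.7%), and lower for 2900 (17.4%).

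Scx itself was nearly absent from the Scx- day 14 tendons. Its values were 5.84, 2.5, 4.9 and 1.66 in the Scx- day 14 libraries, against 593, 442 and 319 in the controls. Every Scx- day 14 library lay far below every control (log2 change -6.33 ± 0.42, adjusted p = 2.13e-08), as the labels have it. Scx (ENSMUSG00000034161.8, chr15:76457452-76459458 on the plus strand of GRCm38) averaged 3.73 ± 1.97 in Scx- day 14 and 451 ± 137 in controls (SD, n = 4 and 3).

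Other tendon transcription factors did not move as a block. Of 10 tested, 3 rose and 4 fell, Scx among them, and the median change of -0.3 turned to 0.17 under library totals. Mkx encodes Mohawk, a homeobox factor needed for tendon collagen. It had values of 411, 437, 1147 and 937 in the Scx- day 14 libraries, against 309.6, 210 and 139 in the controls. All Scx- day 14 libraries were above all controls, most so replicates 3 and 4 (log2 change 1.66 ± 0.45, adjusted p = 0.00641). Egr2, a zinc finger factor that can induce Scx and tendon collagens, rose (log2 change 3.93 ± 0.9, adjusted p = 0.00233), as did Eya2, a transcriptional cofactor (log2 change 1.34 ± 0.4, adjusted p = 0.0129), a call lost without control replicate 3 (adjusted p up to 0.0988). The homeobox factor Six2 fell (log2 change -2.58 ± 0.54, adjusted p = 0.00112). The falls of Eya1 (log2 change -2.1 ± 0.81) and Tcf15 (log2 change -2.12 ± 0.79) rested on single libraries: the Eya1 call was lost without control replicate 2 or 3 or without Scx- day 14 replicate 3 or 4 (adjusted p up to 0.135), and the Tcf15 call without control replicate 1, 2 or 3 or without Scx- day 14 replicate 2, 3 or 4 (adjusted p up to 0.108). The number of members that fell was 2 without control replicate 2 or 3 or without Scx- day 14 replicate 3 or 4. Egr1, also a tendon zinc finger factor, did not pass (log2 change 0.76 ± 0.58, adjusted p = 0.302).

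Markers of differentiated tenocytes went in both directions. Of 12 tested, 5 rose and 2 fell. The number that rose was 3 without control replicate 2 or 3, and 7 without Scx- day 14 replicates 1 and 2, and the falls were 1 without control replicate 1 or 2 or without Scx- day 14 replicate 1, 2 or 4. Tnmd encodes tenomodulin, a membrane protein of mature tenocytes and a direct scleraxis target. Its values were 1155, 1240.2, 6323 and 6668 in the Scx- day 14 libraries, against 3052, 1274 and 886 in the controls. The groups overlapped: replicates 1 and 2 of Scx- day 14 lay inside the control range and replicates 3 and 4 were above it (log2 change 0.88 ± 0.67, adjusted p = 0.296). Without replicates 1 and 2 the change was 2.1 with an adjusted p of 0.0103. Fmod, shown with its promoter above, had 11226, 12122, 60333 and 19780.4 in the Scx- day 14 libraries, against 99449, 33362 and 22237 in the controls, again overlapping (log2 change -1.06 ± 0.6, adjusted p = 0.158). Chad, which encodes chondroadherin, had 401, 452, 7576 and 592 in the Scx- day 14 libraries, against 53199.5, 26675 and 14206 in the controls. It was lower in every Scx- day 14 library than in any control, with replicate 3 nearest to them (log2 change -4.84 ± 0.93, adjusted p = 0.000803).

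Among those that rose, Tnc, the tenascin of developing and loaded tendon, had 12097, 5908, 18566 and 26376 in the Scx- day 14 libraries, against 2437, 1139 and 624 in the controls (log2 change 3.51 ± 0.52, adjusted p = 8e-05). Lox, the collagen crosslinking enzyme, rose by a log2 change of 3.15 ± 0.41, Col11a1 by 2.34 ± 0.59, Thbs4, a thrombospondin of the tendon matrix, by 1.48 ± 0.44, and Cilp by 1.23 ± 0.44. The Thbs4 call was lost without control replicate 2 or 3 (adjusted p up to 0.0844) and the Cilp call without control replicate 2 or 3 or without Scx- day 14 replicate 1 or 3 (adjusted p up to 0.236). Cilp2 had a log2 change of -2.99 ± 1.02, a call lost without control replicate 1 or 2 or without Scx- day 14 replicate 1, 2 or 4 (adjusted p up to 0.105). Comp, which binds collagen fibrils, and Dcn, decorin, did not pass (adjusted p = 0.902 and 0.102).

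**Figure D2:**
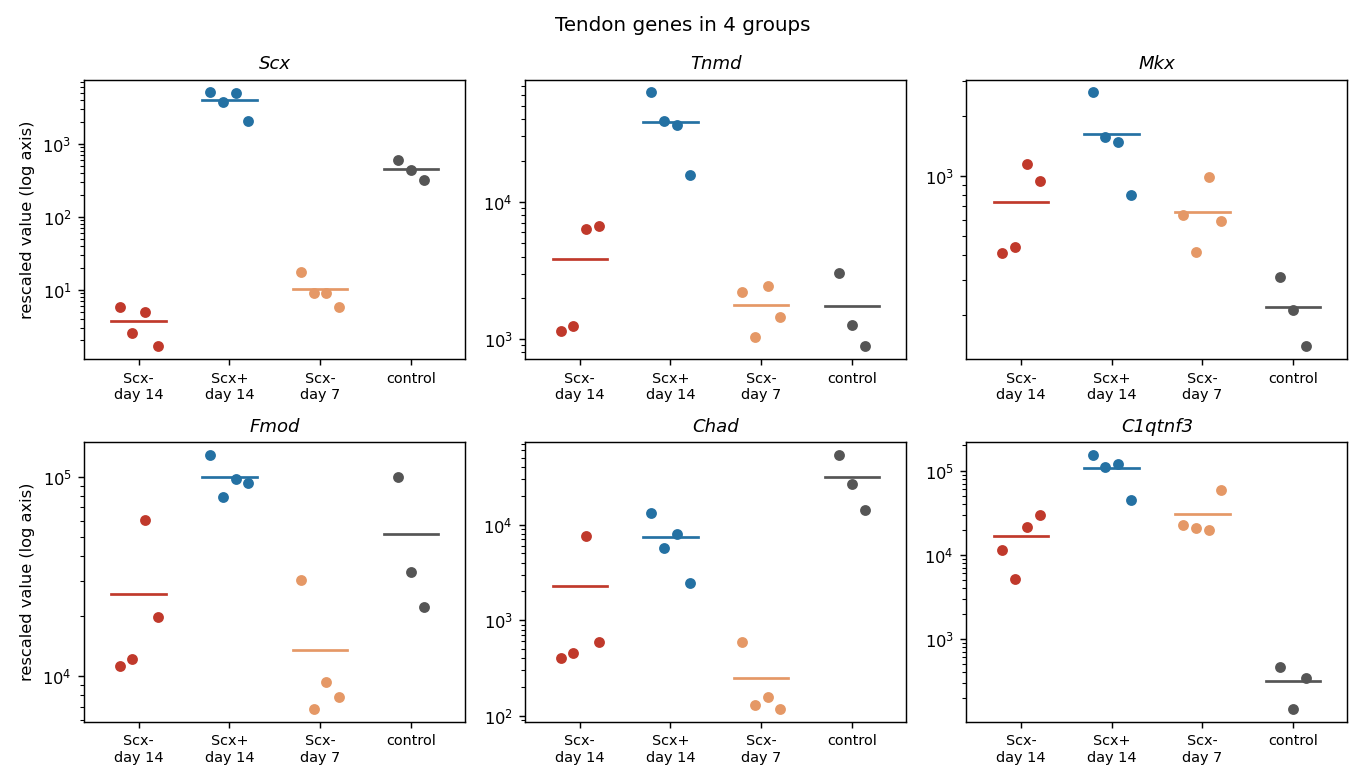
Rescaled values (log axis) of 6 tendon genes in Scx- day 14, Scx+ day 14, Scx- day 7 and control libraries, 1 point per library with a bar at the mean. Scx is at or below 5.84 in every Scx- day 14 library; Tnmd and Fmod overlap the controls, Mkx and C1qtnf3 lie above them and Chad below.

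Fibrillar collagen genes rose strongly. Of 11 tested, 8 rose and 2 fell, with a median change of 2.65. Col1a1, which encodes the main chain of tendon collagen, had 507275, 282694, 1624017 and 750668 in the Scx- day 14 libraries, against 132385, 78027 and 56311 in the controls (log2 change 2.95 ± 0.45, adjusted p = 8.48e-05). Its partner chain Col1a2 had 452272, 308257, 1651186 and 938647 in the Scx- day 14 libraries, against 175365, 102449 and 70997 in the controls (log2 change 2.65 ± 0.45, adjusted p = 0.000213). Col3a1, the collagen of young and healing tendon, had 566952, 408818, 2147714 and 1506921 in the Scx- day 14 libraries, against 133783, 78312 and 70345 in the controls (log2 change 3.36 ± 0.45, adjusted p = 2.73e-05). In all 3 genes every Scx- day 14 library was above every control, and replicates 3 and 4, the ones with less muscle signal, were the highest. Col5a1 and Col5a2, whose product nucleates fibrils, changed by 2.86 ± 0.41 and 2.82 ± 0.39. The minor chains Col11a2 and Col24a1 fell, by log2 changes of -2.14 ± 0.71 and -1.66 ± 0.38, the Col11a2 call being lost without control replicate 1 or 3 or without Scx- day 14 replicate 2, 3 or 4 (adjusted p up to 0.0695). Col2a1, the collagen of cartilage, had 14846, 251, 12.2 and 101 in the Scx- day 14 libraries, against 35.2, 13.6 and 3.83 in the controls and did not pass (adjusted p = 0.0808). Its high mean came from replicate 1 alone.

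Collagens that sit on or around the fibrils rose as well. Among fibril-associated collagens, 5 of 9 rose and 2 fell. Col12a1 and Col14a1, which link fibrils to each other, changed by 2.96 ± 0.41 and 3.38 ± 0.42. The type IX chains split: Col9a3 had 713, 74.6, 137 and 139 in the Scx- day 14 libraries, against 0, 18.3 and 0 in the controls (log2 change 5.39 ± 0.91, adjusted p = 0.000209), and Col9a2 was listed at 261, 13.2, 10 and 113 in Scx- day 14 and at 0 in all 3 controls (adjusted p = 0.000513). Col9a1, the chain they assemble with in cartilage, had 568, 137, 70.4 and 152 in the Scx- day 14 libraries, against 1837, 2943 and 1467 in the controls and fell (log2 change -3.53 ± 0.69, adjusted p = 0.000666). Replicate 1 stood apart from the other 3 in Col9a1 and Col9a3. Col22a1, a collagen of tissue junctions such as that of muscle with tendon, also fell (log2 change -2.79 ± 1, adjusted p = 0.0337), a call lost without control replicate 1, 2 or 3 or without Scx- day 14 replicate 3 or 4 (adjusted p up to 0.0957). Of 22 network and filament collagens, 10 rose and 1 fell, and 13 rose without Scx- day 14 replicates 1 and 2. The rises were 7 without control replicate 3 or without Scx- day 14 replicate 3. Col8a1, a short-chain collagen of vessel walls and wounds, had 10292, 2859, 28763 and 17419 in the Scx- day 14 libraries, against 995, 388 and 513 in the controls (log2 change 4.24 ± 0.53, adjusted p = 1.73e-05). The type VI chains Col6a1, Col6a2 and Col6a3, which form the pericellular filaments of tenocytes, changed by 2.19 ± 0.42, 2.69 ± 0.46 and 2.22 ± 0.44. Col4a3, a basement membrane chain, fell (log2 change -2.77 ± 0.75, adjusted p = 0.00689).

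The machinery that makes collagen rose nearly as a whole. Of 28 tested genes, 22 rose and 2 fell, with a median change of 1.44, and 20 to 22 rose in each fit with 1 library left out. Lox had 31763, 23269.6, 64073 and 34829 in the Scx- day 14 libraries, against 8649, 2971 and 2539 in the controls, no Scx- day 14 library being near a control (log2 change 3.15 ± 0.41, adjusted p = 2.08e-05). The other lysyl oxidases Loxl1, Loxl2 and Loxl3 changed by 2.95 ± 0.29, 2.04 ± 0.46 and 1.41 ± 0.34, while Loxl4 did not pass (adjusted p = 0.981). Among the prolyl hydroxylases, P4ha3 rose (log2 change 2.78 ± 0.26, adjusted p = 8.69e-07), and the more general subunits P4ha1 and P4ha2 did not pass (log2 changes -0.23 ± 0.25 and -0.08 ± 0.21, adjusted p = 0.482 and 0.79). Serpinh1, the collagen chaperone Hsp47, rose by 1.92 ± 0.32, Fkbp10 by 2.05 ± 0.28 and the propeptidase Bmp1 by 1.59 ± 0.29. The falls were P3h2, a prolyl 3-hydroxylase (log2 change -1.5 ± 0.43), and Pcolce2, an enhancer of propeptide removal (log2 change -1.57 ± 0.47), the second being lost without control replicate 3 (adjusted p up to 0.0512).

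Small leucine-rich proteoglycans, which bind fibrils and set their width, mostly rose: 7 of 12, with 1 fall, that of Chad. Lum, lumican, had 32462, 42228, 148183 and 164197 in the Scx- day 14 libraries, against 10068, 2439 and 5060.2 in the controls (log2 change 3.93 ± 0.65, adjusted p = 0.000201). Epyc, epiphycan, had 24.7, 48.2, 45 and 205 in the Scx- day 14 libraries, against 25.7, 0.931 and 0 in the controls, with replicate 4 of Scx- day 14 far above the others and replicate 1 just under the highest control (log2 change 3.46 ± 0.92, adjusted p = 0.00584). Ogn and Bgn changed by 2.67 ± 0.43 and 2.38 ± 0.27. The Omd call (log2 change 3.13 ± 0.97) was lost without control replicate 3 (adjusted p up to 0.0926). Matricellular proteins, secreted modulators of how cells meet the matrix, gave 13 rises of 19 and no fall. Postn, periostin, had 155024, 106719, 239333 and 373008 in the Scx- day 14 libraries, against 3532, 2035 and 2938 in the controls. The lowest Scx- day 14 value was far above the highest control (log2 change 6.15 ± 0.35, adjusted p = 5.83e-09). Cthrc1, a secreted protein of collagen-making fibroblasts, had 8284, 6156, 13463 and 20102 in the Scx- day 14 libraries, against 107, 72.8 and 161 in the controls (log2 change 6.63 ± 0.43, adjusted p = 1.91e-08). Tnn, which encodes tenascin-W, had 4885, 2204, 4653 and 9373 in the Scx- day 14 libraries, against 152, 44.3 and 30.1 in the controls (log2 change 6.25 ± 0.52, adjusted p = 3.94e-07). Thbs1 and Thbs2, the thrombospondins, changed by 2.83 ± 0.52 and 3.47 ± 0.44, and Sparc by 1.96 ± 0.38. Fn1, fibronectin, did not pass (log2 change 0.96 ± 0.53, adjusted p = 0.154), nor did Ctgf, also called Ccn2 (log2 change 0.83 ± 0.41, adjusted p = 0.108).

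**Figure D3:**
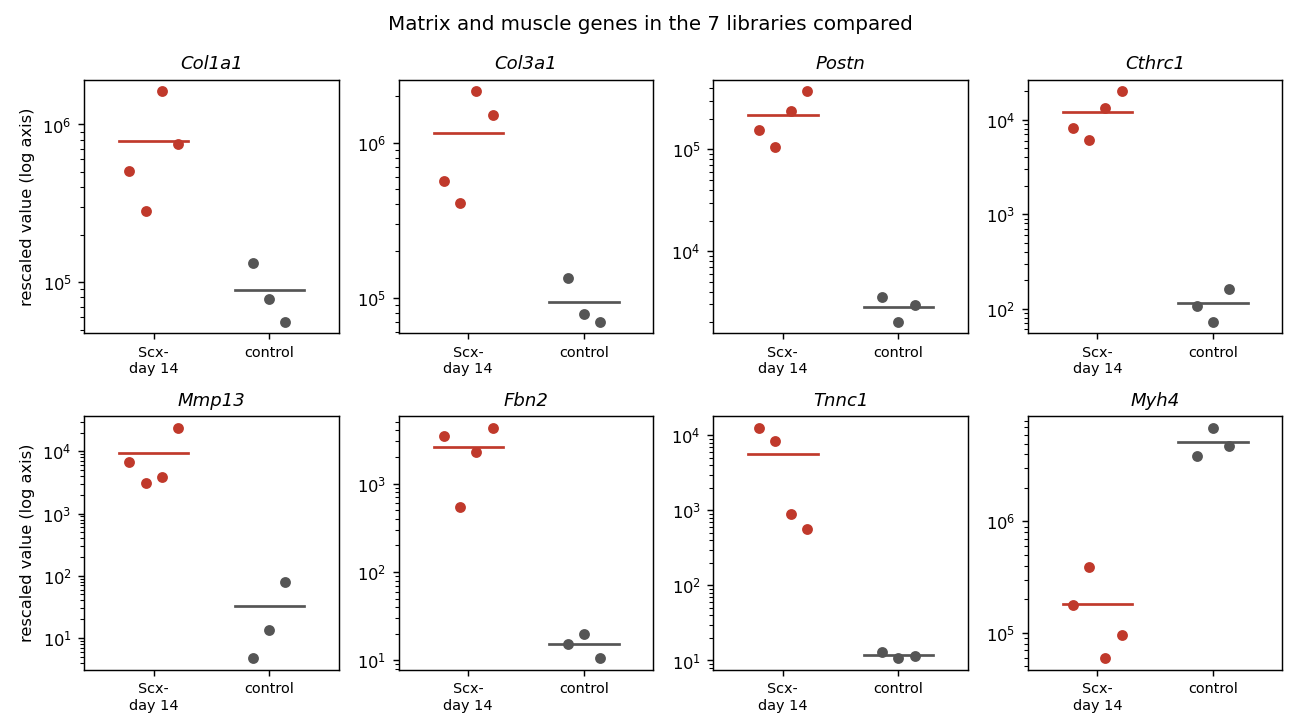
Rescaled values (log axis) of 8 matrix and muscle genes in the 4 Scx- day 14 libraries (left in each panel) and the 3 controls (right), 1 point per library with a bar at the mean. Scx- day 14 and control points do not overlap in any panel; Scx- day 14 replicates 1 and 2 are the higher pair for Tnnc1, and Myh4 is the gene that lies below the controls.

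Elastic fibre genes rose in 11 of 16 and fell in 1. Fbn2, the fibrillin of developing microfibrils, had 3412, 547, 2246 and 4253 in the Scx- day 14 libraries, against 15.3, 20 and 10.6 in the controls (log2 change 6.93 ± 0.48, adjusted p = 5.53e-08). Fbn1, the fibrillin of adult tissue, changed less, by 1.79 ± 0.33. Eln, elastin, had 35367, 19052, 220999.7 and 22927 in the Scx- day 14 libraries, against 4879, 2933 and 3128 in the controls, replicate 3 standing above the rest (log2 change 3.6 ± 0.73, adjusted p = 0.00107). The microfibril genes Mfap4 and Mfap2 changed by 4.46 ± 0.3 and 3.69 ± 0.37. Ltbp2, which binds fibrillin, was the 1 fall (log2 change -1.09 ± 0.39), a call lost without control replicate 1 or without Scx- day 14 replicate 4 (adjusted p up to 0.15). In the hyaluronan and large proteoglycan list 6 of 13 rose, but 3 without Scx- day 14 replicate 3, and 2 fell, but 1 without control replicate 1 or 2 or without Scx- day 14 replicate 4. Acan, aggrecan, had 5075, 1069, 3600.1 and 3637 in the Scx- day 14 libraries, against 735, 213 and 93.5 in the controls (log2 change 3.55 ± 0.82, adjusted p = 0.00279). Tnfaip6, which modifies hyaluronan in inflamed tissue, rose (log2 change 3.33 ± 0.64, adjusted p = 0.000693), and so did the synthase Has2 (log2 change 1.82 ± 0.49, adjusted p = 0.00654), whereas the synthase Has3 fell (log2 change -3.32 ± 0.51, adjusted p = 0.000106).

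Genes that break down matrix rose with those that build it. Of 20 metalloproteinases and inhibitors tested, 15 rose and 1 fell, with a median change of 3.2. Mmp13, the collagenase whose promoter is shown above, had 6848, 3046, 3927 and 23753 in the Scx- day 14 libraries, against 4.72, 13.4 and 79.1 in the controls (log2 change 8.35 ± 0.98, adjusted p = 1.55e-05). Mmp12, the elastase of macrophages, had 4053, 845, 539 and 5912 in the Scx- day 14 libraries, against 1.59, 24.7 and 40.4 in the controls (log2 change 6.83 ± 1.14, adjusted p = 0.000278). Mmp3, stromelysin, had 10872, 3179.7, 7082 and 8098 in the Scx- day 14 libraries, against 159, 171 and 207 in the controls (log2 change 5.21 ± 0.46, adjusted p = 6.53e-07). Across the 3 genes no Scx- day 14 library was below 539 and no control above 207. Mmp14, the membrane-bound activator of Mmp2, changed by 4.14 ± 0.32 and Mmp2 by 3.04 ± 0.35. The aggrecanase Adamts4 changed by 3.62 ± 0.52 and the metalloproteinase Adamts16 by 4.28 ± 0.78. Among the inhibitors, Timp1 rose (log2 change 3.41 ± 0.37, adjusted p = 3.74e-06), Timp4 fell (log2 change -3.97 ± 1.28, adjusted p = 0.0193, a call lost without control replicate 2 or without Scx- day 14 replicate 4, adjusted p up to 0.0667), and Timp3 did not pass (adjusted p = 0.17). Of 14 matrix-binding integrins, the receptors for these proteins, 4 rose, near the 25.5% of all genes, but 1 without control replicate 2, and 1 fell, a fall lost without control replicate 1 or 2 or without Scx- day 14 replicate 2 or 4. Itga5, the fibronectin receptor chain, had a log2 change of 0.98 ± 0.2 (adjusted p = 0.000907).

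Growth factor signals gave a mixed picture. Of 25 TGF-beta, BMP and activin genes, 8 rose and 3 fell, near the shares of all genes. The ligand Tgfb1 rose (log2 change 1.34 ± 0.16, adjusted p = 9.02e-06) and its receptor Tgfbr2 rose (log2 change 1.23 ± 0.26, adjusted p = 0.00104), while the ligand Tgfb2 fell (log2 change -0.85 ± 0.26, adjusted p = 0.0147) and Tgfb3 did not pass (adjusted p = 0.0932). The Tgfb2 call was lost without control replicate 3 (adjusted p up to 0.0722). Grem1, a secreted BMP inhibitor, was listed at 16.5, 22.3, 57.5 and 23.8 in Scx- day 14 and at 0 in all 3 controls (adjusted p = 0.000342). Mstn, myostatin, the muscle-made brake on muscle growth, had 648, 1020.1, 173 and 175 in the Scx- day 14 libraries, against 5005, 10463 and 10751 in the controls. It was far lower in every Scx- day 14 library (log2 change -4.45 ± 0.74, adjusted p = 0.000204), and muscle fibre signal was lower in the same libraries.

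In the insulin-like growth factor list 6 of 10 rose and 1 fell. The ligand Igf1 had 8822, 10389.5, 41939.7 and 40595 in the Scx- day 14 libraries, against 4599, 3614 and 4677 in the controls (log2 change 2.22 ± 0.48, adjusted p = 0.0016), and Igf2 rose by 1.88 ± 0.55. The receptors Igf1r and Igf2r did not pass (adjusted p = 0.308 and 0.659). Of the binding proteins, Igfbp2 had 752, 30.1, 1343 and 617 in the Scx- day 14 libraries, against 10.1, 4.54 and 0.46 in the controls (log2 change 6.02 ± 1.23, adjusted p = 0.00105). Igfbp3 and Igfbp4 changed by 2.06 ± 0.35 and 2.92 ± 0.3, and Igfbp5 fell by a log2 change of -1.51 ± 0.47, a call lost without control replicate 2 (adjusted p up to 0.0509). Of 13 genes of YAP-TEAD signalling and mechanical sensing, 8 rose and none fell. Tead2, a DNA-binding partner of YAP, changed by 3 ± 0.29, the stretch-gated channel Piezo2 by 2.34 ± 0.48 and Wwtr1, which encodes TAZ, by 1.17 ± 0.24. Ankrd1, a YAP target that muscle also makes, had 19403, 15705, 5819 and 5205 in the Scx- day 14 libraries, against 291, 168 and 686 in the controls, and its call was lost without control replicate 2 (adjusted p up to 0.0663). Yap1 and Piezo1 did not pass (adjusted p = 0.106 and 0.258).

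Cell division genes were higher in the Scx- day 14 tendons. Of 22 mitosis genes, 20 rose and none fell, with a median change of 3.28, and the count of rises was 20 in each of the 7 fits with 1 of these libraries left out and 18 without Scx- day 14 replicates 1 and 2. Mki67, the marker of cycling cells, had 2465, 1301, 1491 and 1344 in the Scx- day 14 libraries, against 425, 93.3 and 124 in the controls (log2 change 3.21 ± 0.76, adjusted p = 0.00343). Aurkb, a kinase of chromosome segregation, had 390.1, 231, 149 and 185 in the Scx- day 14 libraries, against 0, 1.03 and 4.32 in the controls (log2 change 6.06 ± 0.58, adjusted p = 1e-06). Ccnb2, a mitotic cyclin, had 771, 706, 187 and 359 in the Scx- day 14 libraries, against 9.2, 4.7 and 28.4 in the controls (log2 change 5.06 ± 0.77, adjusted p = 0.000103). No Scx- day 14 library overlapped a control in these 3. Aurka and Tpx2, which act together at the spindle, did not pass (log2 changes -0.04 ± 0.5 and 1 ± 0.57, adjusted p = 0.95 and 0.165). DNA replication genes rose in 12 of 22, by less, with a median of 0.74. Rrm2, the regulated subunit of ribonucleotide reductase, changed by 3.81 ± 0.42, and Cdt1 and Uhrf1, needed for licensing and for copying methylation, by 2.47 ± 0.23 and 2.46 ± 0.44. Mcm2, Mcm7 and Rrm1 did not pass (log2 changes -0.24 ± 0.28, -0.11 ± 0.21 and -0.16 ± 0.27).

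Making ribosomes and secreting protein gave no such one-sided result. Of 16 ribosome biogenesis genes, 4 rose and 5 fell, counts that were 2 without control replicate 3 or without Scx- day 14 replicate 4 for rises and 8 without Scx- day 14 replicate 2 for falls. Their median of -0.23 turned to 0.24 under library totals. Npm1 rose (log2 change 0.98 ± 0.21, adjusted p = 0.00137) and Polr1a, the large subunit of RNA polymerase I, fell (log2 change -1.28 ± 0.36, adjusted p = 0.00785). Of 18 secretory and unfolded protein response genes, 8 rose, but 4 without control replicate 3, and 2 fell, with a median of 0.32 that was -0.02 on the values as deposited. The genes that rose most and held were Creb3l1, a factor that drives secretion of collagen (log2 change 1.87 ± 0.32, adjusted p = 0.000267), and Sec24d, a coat protein of the vesicles that carry procollagen (log2 change 1.8 ± 0.29, adjusted p = 0.000162). The stress sensors' target Hspa5 and the factor Xbp1 did not pass (adjusted p = 0.43 and 0.251).

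Markers of macrophages and monocytes were higher. Of 19 tested, 12 rose and none fell, with a median change of 1.27. In bulk RNA more cells of a type and more RNA per cell cannot be told apart. The pan-macrophage marker Adgre1 had 1504, 3342, 2373 and 2657 in the Scx- day 14 libraries, against 663, 664 and 1561 in the controls, replicate 1 falling just under the highest control (log2 change 1.42 ± 0.34, adjusted p = 0.00318). Ccr2, the chemokine receptor of recruited monocytes, had 539.7, 1277, 2817 and 1636 in the Scx- day 14 libraries, against 200.5, 148 and 379 in the controls (log2 change 2.56 ± 0.54, adjusted p = 0.00124). Gpnmb and Ms4a7, both abundant in tissue macrophages, changed by 3.24 ± 0.49 and 2.98 ± 0.4. Csf1r, Mrc1 and Cx3cr1, also macrophage genes, did not pass (adjusted p = 0.561, 0.0648 and 0.798). The summed share of the list was 0.128, 0.285, 0.273 and 0.323% in Scx- day 14, against 0.068, 0.0444 and 0.1% in the controls, replicate 1 being the lowest of the 4.

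Of 8 neutrophil genes tested, 4 rose and none fell, among them Retnlg, listed at 165, 31.6, 6.75 and 10.6 in Scx- day 14 and at 0 in all 3 controls (adjusted p = 0.00959), and Csf3r, the receptor for the neutrophil growth factor (log2 change 3.25 ± 0.38, adjusted p = 7.87e-06). The S100a9 call (log2 change 3.93 ± 1.17) was lost without control replicate 1 (adjusted p up to 0.0851), and S100a8 did not pass (adjusted p = 0.0796). Of 12 lymphocyte genes 3 rose, near the share of all genes, and none fell, with a median change of 1.22. The rises were 5 without control replicate 3 and 2 without Scx- day 14 replicate 4. Their summed value was 174.1 to 420.6 in Scx- day 14 and 72.3 to 149.8 in the controls, low in both and without overlap. Cd79b, a chain of the B cell receptor, had 36.6, 112, 77.6 and 71.2 in the Scx- day 14 libraries, against 18.5, 9.52 and 0 in the controls (log2 change 3.19 ± 0.64, adjusted p = 0.000786). Cd3g, a chain of the T cell receptor complex, was listed at 4.52, 13.6, 21.3 and 11.6 in Scx- day 14 and at 0 in all 3 controls (adjusted p = 0.00149). Cd4 had 101, 166, 96.1 and 249 in the Scx- day 14 libraries, against 9.54, 72.6 and 66.2 in the controls, a call lost without control replicate 1 or without Scx- day 14 replicate 4 (adjusted p up to 0.147). The B cell markers Ms4a1 and Cd79a and the T cell marker Cd3e did not pass (adjusted p = 0.599, 0.982 and 0.853), none reaching 15 in any of the 7 libraries. Of 7 mast cell genes 2 rose, with 0 rising without Scx- day 14 replicate 1, and the defining proteases Cpa3 and Mcpt4 did not pass (adjusted p = 0.947 and 0.157).

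Secreted inflammatory signals rose in 22 of 29 genes and fell in 2, with a median of 2.36. Cxcl5, which attracts neutrophils, had 402, 309, 10.7 and 541 in the Scx- day 14 libraries, against 0, 0 and 1.28 in the controls (log2 change 6.19 ± 0.98, adjusted p = 0.000128). Il1b, the cytokine interleukin-1 beta, had 165, 307, 34.9 and 671 in the Scx- day 14 libraries, against 0, 24.9 and 1.62 in the controls (log2 change 5.03 ± 1.09, adjusted p = 0.00149). Il6 had 105, 64.4, 24.1 and 325 in the Scx- day 14 libraries, against 20.4, 3.24 and 0 in the controls (log2 change 3.84 ± 0.8, adjusted p = 0.00109). No control was above 24.9 in these 3 genes, and the groups did not overlap, although replicate 3 came near the controls. Cxcl2 was listed at 128, 52.4, 5.48 and 143 in Scx- day 14 and at 0 in all 3 controls (adjusted p = 0.000879). The monocyte attractant Ccl7 changed by 4.02 ± 0.62, and Ptgs2, the inducible prostaglandin synthase, by 3.63 ± 0.54. The constitutive synthase Ptgs1 and the leukotriene enzyme Alox5 fell (log2 changes -0.94 ± 0.28 and -1.62 ± 0.43), the Ptgs1 call being lost without control replicate 1 (adjusted p up to 0.0801). Tnf and Il33 did not pass (adjusted p = 0.977 and 0.629).

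Interferon response genes rose in 12 of 23, with no fall and a median of 1.08. The rises were 8 without control replicate 3 or without Scx- day 14 replicate 4, and 14 without Scx- day 14 replicate 2. Oas3, an antiviral RNA sensor, had 76.6, 25, 39.3 and 73.3 in the Scx- day 14 libraries, against 1.78, 2.25 and 1.56 in the controls (log2 change 3.72 ± 0.58, adjusted p = 0.000107). Irf7, a factor that amplifies the response, changed by 1.59 ± 0.29 and Zbp1 by 1.5 ± 0.34. Mx1 had 93, 49.8, 78.4 and 56.9 in the Scx- day 14 libraries, against 72.5, 7.91 and 3.24 in the controls, and its call was lost without control replicate 2 or 3 or without Scx- day 14 replicate 1, 3 or 4 (adjusted p up to 0.205). The Ifit1 and Oasl2 calls (log2 changes 1.45 ± 0.53 and 1.13 ± 0.42) were lost without control replicate 1, 2 or 3 or without Scx- day 14 replicate 1, 3 or 4 (adjusted p up to 0.0944) and without control replicate 1 or 3 or without Scx- day 14 replicate 1, 3 or 4 (adjusted p up to 0.153). Of 10 MHC class II genes 3 rose, but 8 without Scx- day 14 replicate 1 and 2 without control replicate 2. The protease Ctss changed by 1.98 ± 0.34 and the reductase Ifi30 by 1.35 ± 0.29 on the log2 scale. Complement genes rose in 10 of 15, but 6 without control replicate 2. They fell in 2, but 1 without control replicate 2 or 3 or without Scx- day 14 replicate 2 or 4. Cfi, a complement inhibitor, was listed at 95.4, 50.6, 69 and 221 in Scx- day 14 and at 0 in all 3 controls (adjusted p = 5.52e-07). C1ra rose by 1.97 ± 0.25, and C7, of the membrane attack complex, fell (log2 change -3.17 ± 0.82, adjusted p = 0.00565).

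Few vessel markers passed. Of 14 endothelial genes none rose and 1 fell, Flt1, whose call was lost without control replicate 1 or 2 or without Scx- day 14 replicate 2 or 4 (adjusted p up to 0.097). The median change of -0.09 was 0.38 under library totals. Pecam1, a junction protein of all endothelium, had 12801, 5011, 11034 and 7882 in the Scx- day 14 libraries, against 13255, 8251 and 5084 in the controls, with overlapping groups (log2 change 0.07 ± 0.38, adjusted p = 0.894). Cdh5 and Tek had log2 changes of 0.06 ± 0.41 and -0.14 ± 0.32. Of 11 mural cell genes 3 rose and none fell, with a median of 0.04 that was -0.3 on the values as deposited. Those that held in every fit with 1 library left out were Acta2, the smooth muscle actin that active fibroblasts also make (log2 change 1.39 ± 0.38, adjusted p = 0.00749), and the receptor Pdgfrb (log2 change 1.11 ± 0.28, adjusted p = 0.00476). The pericyte marker Rgs5 did not pass (adjusted p = 0.831).

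Of 10 Schwann cell and nerve genes, 1 rose and 2 fell. The rises were 2 without control replicate 2, and the falls 1 without control replicate 2 and 5 without control replicate 3 or without Scx- day 14 replicate 4. Mbp, a myelin protein, fell (log2 change -1.78 ± 0.37, adjusted p = 0.00101). Fibroblast and sheath progenitor genes rose in 7 of 11 and fell in 1, and 10 rose without Scx- day 14 replicates 1 and 2. Only 5 rose without control replicate 2 or without Scx- day 14 replicate 3 or 4. Pi16, a marker of a pan-tissue fibroblast state, had 7360, 13929, 14020.5 and 10533 in the Scx- day 14 libraries, against 1617, 3183 and 4067 in the controls (log2 change 2.01 ± 0.44, adjusted p = 0.00176). Dpt, Cd248 and the growth factor receptor Pdgfra changed by 1.86 ± 0.39, 1.77 ± 0.33 and 1.31 ± 0.31. Tppp3, a marker of tendon sheath cells that include stem cells, fell: it had 1686, 964, 6183 and 4894 in the Scx- day 14 libraries, against 14430.3, 12005 and 19789 in the controls (log2 change -2.51 ± 0.48, adjusted p = 0.000683).

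Most muscle fibre genes were below the controls in every Scx- day 14 library, but few passed the test. Of 25 tested, 4 rose and 1 fell, with a median change of -1.8 and a wide spread within Scx- day 14. The groups did not overlap, with Scx- day 14 lower, in 14 of the 25, where 17.4% of all genes did so, and with Scx- day 14 higher in 4. Acta1, the muscle actin, had 1313537, 1658024, 350537 and 319545 in the Scx- day 14 libraries, against 1874129, 2294452 and 1810344 in the controls, below every control, and did not pass (adjusted p = 0.437). Myh4, the myosin heavy chain of the fastest fibres, had 179276, 392698, 59149.7 and 95617 in the Scx- day 14 libraries, against 3904823, 6905193 and 4736776 in the controls (log2 change -5.16 ± 1.3, adjusted p = 0.0049). Myosin heavy chain genes are similar in sequence, and how reads were split between them is not given in the sources used here. The slow-fibre troponin genes Tnnc1, Tnni1 and Tnnt1 rose. Tnnc1 had 12526, 8303, 899.7 and 572 in the Scx- day 14 libraries, against 13, 10.7 and 11.5 in the controls (log2 change 7.63 ± 1.23, adjusted p = 0.000212). Tnni1 had 10785, 8258, 1951 and 1599 in the Scx- day 14 libraries, against 7.41, 19 and 47.7 in the controls (log2 change 7.57 ± 1.27, adjusted p = 0.000297). Tnnt1 had a log2 change of 5.49 ± 1.18 (adjusted p = 0.0017), and the slow myosin Myh7 had 25091, 3730.4, 55.4 and 40.7 in the Scx- day 14 libraries, against 26, 13 and 14.4 in the controls, a call lost without control replicate 2 or 3 or without Scx- day 14 replicate 1 or 2 (adjusted p up to 0.075). Tnnc1 and Tnni1 were highest in replicates 1 and 2, the libraries with the most muscle signal, and still far above the controls in replicates 3 and 4.

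Of 15 satellite cell, myogenic and developmental genes, 5 rose and none fell, the rises being 3 without control replicate 2 and 1 without Scx- day 14 replicates 1 and 2. Myh3, the embryonic myosin, had 40024, 24456, 8049.9 and 5409.7 in the Scx- day 14 libraries, against 188, 183 and 520.1 in the controls (log2 change 5.77 ± 1.6, adjusted p = 0.00883). Chrng, the fetal subunit of the acetylcholine receptor, had 274, 119, 27.1 and 28.3 in the Scx- day 14 libraries, against 1.9, 0 and 0 in the controls (log2 change 4.88 ± 1.33, adjusted p = 0.00746), and Ncam1, an adhesion protein of regenerating and denervated fibres, rose (log2 change 2.99 ± 0.59, adjusted p = 0.000812). The satellite cell factor Pax7 and the myogenic factor Myog did not pass (adjusted p = 0.95 and 0.432). Actc1, an actin of heart and developing muscle, had 3006, 1672, 821 and 1902 in the Scx- day 14 libraries, against 6906, 20348 and 18918 in the controls, below every control, and did not pass (log2 change -3.05 ± 1.38, adjusted p = 0.0843), but fell in the fit with the muscle level as a covariate (log2 change -3.07, adjusted p = 0.00493).

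Fat cell genes fell together. All 10 adipocyte markers tested fell, with a median change of -3.23, but 4 without control replicate 3 and 6 without Scx- day 14 replicates 1 and 2. Lep, leptin, had 41.4, 10.1, 91.7 and 59.6 in the Scx- day 14 libraries, against 1047, 2164 and 1555 in the controls (log2 change -5.19 ± 1.15, adjusted p = 0.00174). Adipoq, adiponectin, had 3099, 299, 2476 and 1166 in the Scx- day 14 libraries, against 9649, 12348 and 14598 in the controls (log2 change -3.23 ± 1.01, adjusted p = 0.0177). The groups did not overlap for either, though the Adipoq call was lost without control replicate 3 (adjusted p up to 0.0535). The lipid droplet genes Plin1 and Cidec had log2 changes of -4.21 ± 1.41 and -3.77 ± 1.33, calls that were lost without control replicate 2 or 3 or without Scx- day 14 replicate 2 or 4 (adjusted p up to 0.0716) and without control replicate 1, 2 or 3 or without Scx- day 14 replicate 2 or 4 (adjusted p up to 0.0826). The list's summed share was 0.109, 0.047, 0.0693 and 0.0276% in Scx- day 14, against 0.236, 0.275 and 0.295% in the controls.

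Mitochondrial energy genes were nearly all lower. Of 33 nuclear genes of the respiratory chain, 32 fell and none rose, with a median change of -1.48, and 29 to 32 fell in each fit with 1 library left out. Sdha, of complex II, had 11333, 16354, 6714 and 7289.8 in the Scx- day 14 libraries, against 30589, 44129 and 46142 in the controls (log2 change -2.02 ± 0.29, adjusted p = 5.68e-05). Cox7a1, the heart and muscle form of a complex IV subunit, had 1048, 1876, 536 and 664 in the Scx- day 14 libraries, against 7415, 7331 and 11051 in the controls (log2 change -3.2 ± 0.84, adjusted p = 0.00605). Cox6a2, also a muscle form, was the 1 that did not pass (adjusted p = 0.214). Muscle fibre and adipocyte signal were lower in the same libraries. Without Scx- day 14 replicates 1 and 2, 32 fell, and in the fit with the muscle level as a covariate 33 fell. Neither fit evens out the muscle share of Scx- day 14 and the controls. The part of muscle and fat signal in these falls was thus not tested.

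Fatty acid oxidation and citrate cycle genes fell in 15 of 18, none rising. Idh3a, a subunit of isocitrate dehydrogenase, changed by -1.94 ± 0.38 and Acadvl, which starts the oxidation of long fatty acids, by -1.82 ± 0.29. The call of Cpt1b, the muscle carnitine transferase (log2 change -2.75 ± 0.86), was lost without control replicate 3 or without Scx- day 14 replicate 3 or 4 (adjusted p up to 0.0566). In glycolysis and glycogen use, 11 of 18 fell, but 7 without control replicate 2 or 3 or without Scx- day 14 replicate 3 or 4, and 2 rose. Aldoa, Ldha and Tpi1 changed by -2.59 ± 0.76, -2.54 ± 0.27 and -2.4 ± 0.38. The muscle forms Eno3 and Pgam2 had log2 changes of -2.84 ± 1.08 and -2.92 ± 1.07, each a call lost on leaving out single libraries (adjusted p up to 0.108 and 0.0887): for Eno3 without control replicate 1, 2 or 3 or without Scx- day 14 replicate 1, 3 or 4, and for Pgam2 without control replicate 1, 2 or 3 or without Scx- day 14 replicate 1, 3 or 4. Pgam1, a form of the mutase made outside muscle, and the hexokinase Hk1 were the 2 that rose (log2 change 1.56 ± 0.21, adjusted p = 3.06e-05 and log2 change 1.13 ± 0.25, adjusted p = 0.00157), and Eno1 did not pass (adjusted p = 0.775).

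The remaining lists were small. Of 9 cartilage genes tested 2 rose, but 4 without Scx- day 14 replicate 3, and 1 fell. Matn3, a cartilage matrix protein, was listed at 158, 33.2, 64.6 and 133 in Scx- day 14 and at 0 in all 3 controls (adjusted p = 4.72e-06), whereas Sox9, the master factor of cartilage, did not pass (log2 change 1.1 ± 0.45, adjusted p = 0.0582). Of 11 bone and mineral genes 3 rose, but 1 without control replicate 2 or without Scx- day 14 replicate 3 or 4, and 1 fell. Runx2, an early bone factor, rose (log2 change 2.34 ± 0.36, adjusted p = 1e-04). Dmp1, a mineral-binding protein of osteocytes, had 40.9, 19.6, 77.5 and 42.6 in the Scx- day 14 libraries, against 47.9, 5.12 and 0 in the controls, and Ifitm5, a membrane protein of osteoblasts, had 34.3, 45.4, 37.9 and 43.2 in the Scx- day 14 libraries, against 7.41, 11.9 and 34.5 in the controls. Both overlapped the controls, and their calls (log2 changes 2.25 ± 0.85 and 1.32 ± 0.49) were lost without control replicate 2 or 3 or without Scx- day 14 replicate 1, 3 or 4 (adjusted p up to 0.259) and without control replicate 1 or 2 or without Scx- day 14 replicate 2, 3 or 4 (adjusted p up to 0.171). The osteoblast factor Sp7 had 4.61, 0, 1.01 and 7.47 in the Scx- day 14 libraries, against 0, 13.6 and 10.7 in the controls and did not pass (adjusted p = 0.527). Bglap, osteocalcin, had 0, 0, 8.43 and 6.06 in the Scx- day 14 libraries, against 124, 0 and 0 in the controls and did not pass (adjusted p = 0.556). Of 10 erythroid genes 2 rose, with 1 without control replicate 1 or 3 or without Scx- day 14 replicate 1, 3 or 4, and the globin gene Hba-a2 was listed at 0 in Scx- day 14 replicates 1 and 2 (0, 0, 19117 and 26786 in all 4, against 18836, 16438 and 20069 in the controls). Hba-a1 and Hba-a2 are near-identical copies, so their split is uncertain. Leaving out 1 library also moved other small counts of falls by 1: to 2 for network collagens without control replicate 3, for leucine-rich proteoglycans and for metalloproteinases without Scx- day 14 replicate 3, and for bone genes without control replicate 1 or without Scx- day 14 replicate 4, and to 1 for matricellular proteins without Scx- day 14 replicate 3, for mast cell genes without control replicate 1 and for erythroid genes without Scx- day 14 replicate 3 or 4.

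**Figure D4:**
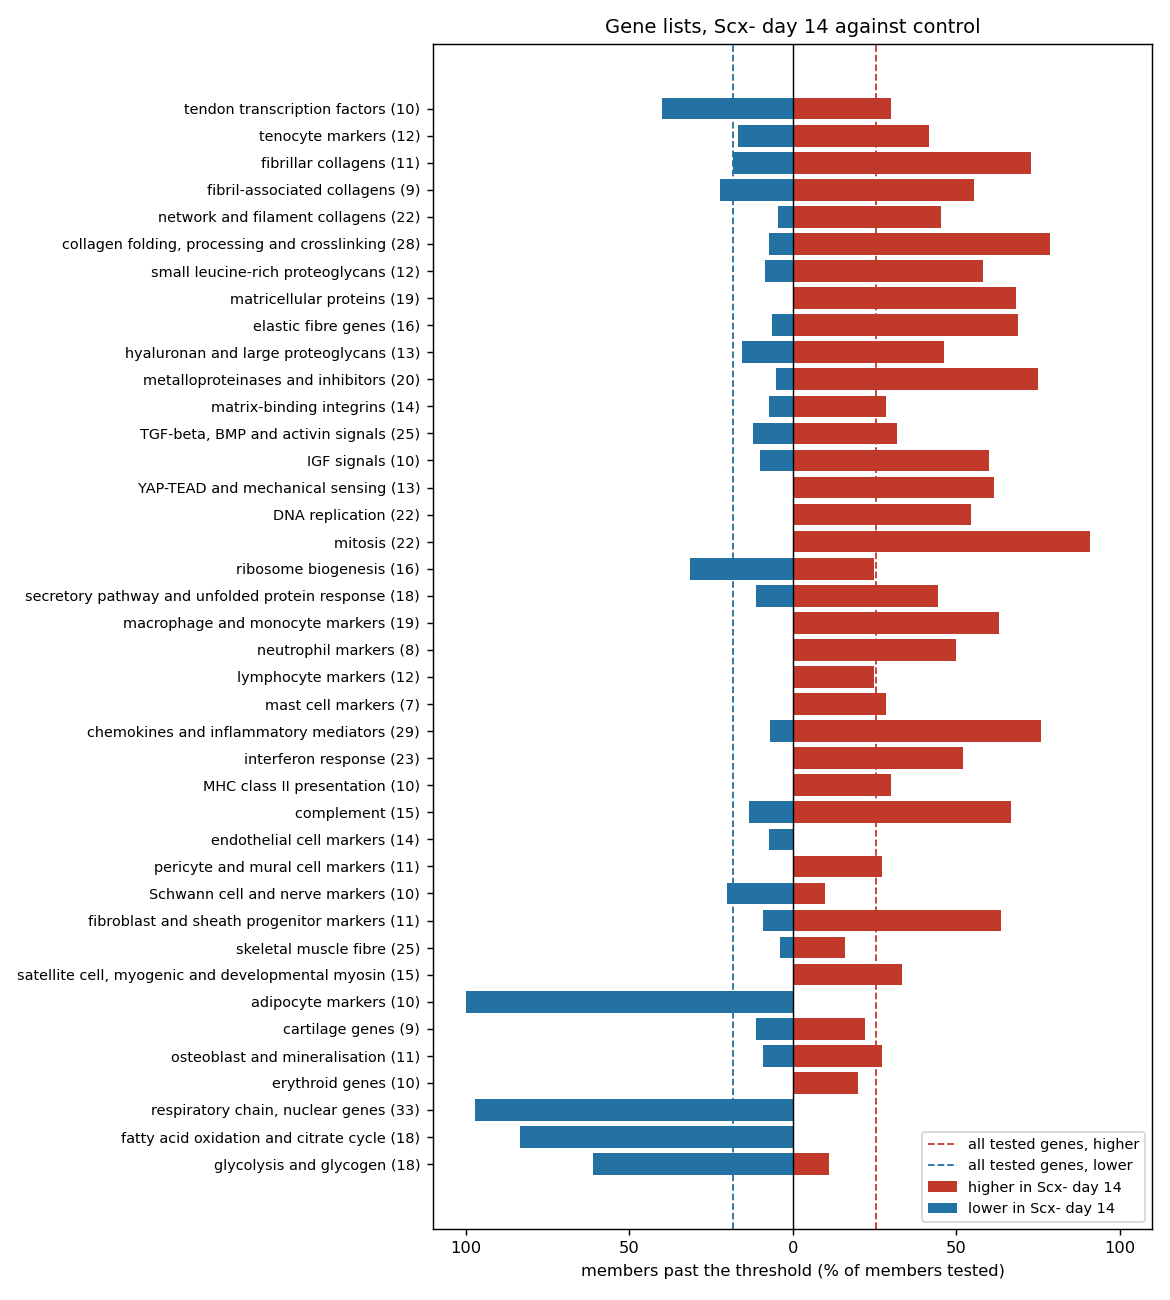
Percentage of tested members of 40 gene lists that were higher (right, red) or lower (left, blue) in Scx- day 14 than in controls at an adjusted p under 0.05, with the number tested in brackets and dashed lines at the shares over all tested genes, 25.5 and 18.3%. Mitosis and collagen processing reach furthest to the right, adipocyte and respiratory chain genes furthest to the left.

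The largest changes over all genes were taken by a rule among called genes whose mean share reached 5 ppm, with regular symbols and no overlap of the groups; 2063 genes that rose and 2053 that fell met it. Over all tested genes, the groups did not overlap in 6348 (38.2%). Agtr2, the type 2 angiotensin II receptor, had 350, 405, 762 and 595 in the Scx- day 14 libraries, against 1.54, 6.58 and 1.39 in the controls (log2 change 6.75 ± 0.47, adjusted p = 3.37e-08). Lrrc15, a membrane protein of activated fibroblasts, had 6803, 3774, 15603 and 15920.5 in the Scx- day 14 libraries, against 132, 78.1 and 74.5 in the controls (log2 change 6.58 ± 0.43, adjusted p = 2.13e-08). Adam12, a membrane metalloproteinase of growing mesenchyme, had 3786, 2316, 7682 and 7207 in the Scx- day 14 libraries, against 43.1, 124 and 51.8 in the controls (log2 change 6.13 ± 0.38, adjusted p = 1.4e-08). In each of these the lowest Scx- day 14 library was many times the highest control. Crabp1, which binds retinoic acid in the cytoplasm, had 655, 942, 429 and 686 in the Scx- day 14 libraries, against 18.5, 3.57 and 0 in the controls (log2 change 6.74 ± 0.92, adjusted p = 4.33e-05). Slpi, a protease inhibitor of inflamed surfaces, had 1564, 278, 81.8 and 3327 in the Scx- day 14 libraries, against 1.85, 0 and 3.29 in the controls (log2 change 7.42 ± 1.05, adjusted p = 5.7e-05), and Igfn1 had 6286, 7634, 1847 and 1077 in the Scx- day 14 libraries, against 11.5, 16.1 and 13.3 in the controls (log2 change 7.66 ± 1.4, adjusted p = 0.000566). Klk1, a kallikrein, also rose (log2 change 6.34 ± 1.21, adjusted p = 0.000736), and since the kallikrein genes are close copies of each other its level is uncertain.

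At the other end stood Crip3, a LIM domain protein, with 4.57, 5.05, 1.69 and 3.03 in the Scx- day 14 libraries, against 1183, 1893 and 2808 in the controls (log2 change -8.42 ± 0.65, adjusted p = 1.33e-07). Cers1, ceramide synthase 1, was listed at 0 in 3 Scx- day 14 libraries and at 122 in the fourth, against 2264, 2148 and 1559 in the controls (log2 change -8.45 ± 2.08, adjusted p = 0.00389). Fgfbp1, which releases fibroblast growth factors from matrix, had 2.32, 0, 5.19 and 4.83 in the Scx- day 14 libraries, against 409, 471 and 1518 in the controls (log2 change -7.2 ± 0.8, adjusted p = 4.94e-06). Crip3 and Fgfbp1 were all but lost in every Scx- day 14 library, and Cers1 in all but replicate 4. Clec3a, a lectin of cartilage and tendon matrix, had 703, 22.9, 1012 and 425 in the Scx- day 14 libraries, against 40691, 13848 and 7029 in the controls (log2 change -5.74 ± 1.37, adjusted p = 0.00356). Coch, cochlin, a matrix protein, had 13.9, 0, 103 and 29.4 in the Scx- day 14 libraries, against 1781, 543 and 253 in the controls (log2 change -5.13 ± 1.21, adjusted p = 0.00279). Aqp4, a water channel that fast muscle fibres carry, had 96.2, 16.5, 53.5 and 91.3 in the Scx- day 14 libraries, against 1352, 1933 and 2422 in the controls (log2 change -5.06 ± 0.85, adjusted p = 0.000201), and Ostn, a peptide hormone made by muscle and bone, had 316, 268, 66.8 and 20.3 in the Scx- day 14 libraries, against 3105, 3438 and 5565 in the controls (log2 change -5.19 ± 1.2, adjusted p = 0.00244). Odf3l2, Asb18 and Gdap1 had log2 changes of -6.43 ± 1.29, -5.19 ± 1.29 and -4.89 ± 0.63. The carboxylesterases Ces1f and Ces1d changed by -5.94 ± 0.93 and -5 ± 1.02, and as neighbouring copies of 1 family they may share reads. Snurf, which shares its transcript with Snrpn, had 334, 257, 0 and 0 in the Scx- day 14 libraries, against 908, 876 and 889 in the controls, a call lost without control replicate 1, 2 or 3 or without Scx- day 14 replicate 3 or 4 (adjusted p up to 0.144).

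Whether a change differed between genotypes was asked by setting Scx- day 14 against Scx+ day 14, the same day and treatment. Both responses share the controls, so the direct test is given and not a comparison of lists of calls. Of 16625 genes, 18 were higher (0.108%) and 68 lower (0.409%), 86 in all (0.517%), and 2429 had an unadjusted p under 0.05. Scx averaged 3.73 ± 1.97 in Scx- day 14 and 3995 ± 1411 in Scx+ day 14 (SD, n = 4 each; log2 change -9.43 ± 0.39, adjusted p = 1.06e-10). Tnmd averaged 3847 ± 3062 in Scx- day 14 and 38502 ± 19282 in Scx+ day 14 (log2 change -3.63 ± 0.62, adjusted p = 0.013). The Tnmd call was lost without Scx+ day 14 replicate 1 or without Scx- day 14 replicate 2 (adjusted p up to 0.0638). Tnmd, which overlapped the controls, was thus lower in Scx- day 14 than in Scx+ day 14. The number of genes called was 22, 40 or 49 without Scx+ day 14 replicate 1, 2 or 3, and 44, 36 or 200 without Scx- day 14 replicate 1, 2 or 3.

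C1qtnf3, a secreted protein of growing skeletal tissue, had 11346, 5212, 21244 and 29536 in Scx- day 14, where Scx+ day 14 averaged 107470 ± 45694 and the controls 317 ± 161 (SD, n = 4 and 3). It was above the controls (log2 change 5.6 ± 0.58, adjusted p = 2.86e-06) and below Scx+ day 14 (log2 change -2.82 ± 0.54, adjusted p = 0.0232), the second call being lost without Scx+ day 14 replicate 1, 2 or 3 or without Scx- day 14 replicate 1 or 2 (adjusted p up to 0.105). Cthrc1 lay between likewise (log2 change of -1.95 ± 0.39 against Scx+ day 14, adjusted p = 0.0312), lost without Scx+ day 14 replicate 1, 2 or 3 or without Scx- day 14 replicate 1 or 2 (adjusted p up to 0.143). Kcnj15, Zfp185 and Gas2 were also above the controls and below Scx+ day 14, with log2 changes against Scx+ day 14 of -2.05 ± 0.36, -2.05 ± 0.35 and -2.42 ± 0.49; their calls were lost without Scx+ day 14 replicate 1 (adjusted p up to 0.0539), without Scx+ day 14 replicate 1 or without Scx- day 14 replicate 2 (adjusted p up to 0.0571) and without Scx+ day 14 replicate 1, 2 or 3 or without Scx- day 14 replicate 1 or 2 (adjusted p up to 0.145). Among list members named after their values were seen, Eya2, Thbs4, Plod1 and Loxl4 were lower in Scx- day 14 (log2 changes -1.9 ± 0.37, -1.94 ± 0.4, -0.95 ± 0.15 and -1.39 ± 0.3, adjusted p = 0.0255, 0.0378, 0.0068 and 0.0464). The Eya2 call was lost without Scx+ day 14 replicate 1, 3 or 4 or without Scx- day 14 replicate 2 or 4 (adjusted p up to 0.0938), the Thbs4 call without Scx+ day 14 replicate 1, 2, 3 or 4 or without Scx- day 14 replicate 1, 2 or 4 (adjusted p up to 0.167) and the Loxl4 call without Scx+ day 14 replicate 1, 2, 3 or 4 or without Scx- day 14 replicate 1, 2 or 4 (adjusted p up to 0.177). Col1a1, Col3a1, Fmod and Mkx did not pass (log2 changes -1.08 ± 0.41, -0.67 ± 0.41, -2.28 ± 0.55 and -1.16 ± 0.41, adjusted p = 0.273, 0.444, 0.0897 and 0.245), which does not show that the genotypes were alike. Muscle fibre genes took 11.5 ± 8.05% of the signal in Scx- day 14 and 4.38 ± 3.8% in Scx+ day 14, and 42 genes were called with the muscle level as a covariate.

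Against Scx- day 7, the same genotype a week earlier, 232 genes were higher in Scx- day 14 (1.4%) and 641 lower (3.86%), 873 in all (5.25%). That number was 370 or 380 without Scx- day 7 replicate 2 or 4, and 427, 555 or 1481 without Scx- day 14 replicate 1, 2 or 4. The interferon genes were the clearest case: all 23 of 23 were lower in Scx- day 14 than at day 7. Irf7 averaged 839.7 ± 277 in Scx- day 14 and 10324 ± 3098 in Scx- day 7 (SD, n = 4 each; log2 change -3.63 ± 0.27, adjusted p = 1.62e-06). Mx1, Oas3 and Ifit1 had log2 changes of -5.31 ± 0.73, -4.74 ± 0.53 and -3.98 ± 0.49 against day 7, and all 4 calls held with any 1 library of the pair of groups left out. Of 19 macrophage genes 11 were lower than at day 7, among them Fcgr1 (log2 change -2.48 ± 0.3, adjusted p = 0.000136), and of 22 replication genes 8, among them Uhrf1 (log2 change -1.86 ± 0.41, adjusted p = 0.0124), lost without Scx- day 7 replicate 4 (adjusted p up to 0.0528). No mitosis gene passed against day 7, although the median change of that list was -1.23, where that of the replication list was -0.88. Tnc and Adam12 were lower than at day 7 (log2 changes -1.72 ± 0.48 and -1.44 ± 0.36), the calls being lost without Scx- day 7 replicate 1, 2 or 4 or without Scx- day 14 replicate 1 or 2 (adjusted p up to 0.155) and without Scx- day 7 replicate 2 or 4 or without Scx- day 14 replicate 1 or 2 (adjusted p up to 0.0828). Mmp3 was higher (log2 change 1.84 ± 0.43, adjusted p = 0.0179), a call lost without Scx- day 7 replicate 4 or without Scx- day 14 replicate 1 (adjusted p up to 0.0706). Col1a1, Col3a1, Postn, Tnmd and Chad did not pass (adjusted p = 0.338, 0.733, 0.0536, 0.518 and 0.139).

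**Figure D5:**
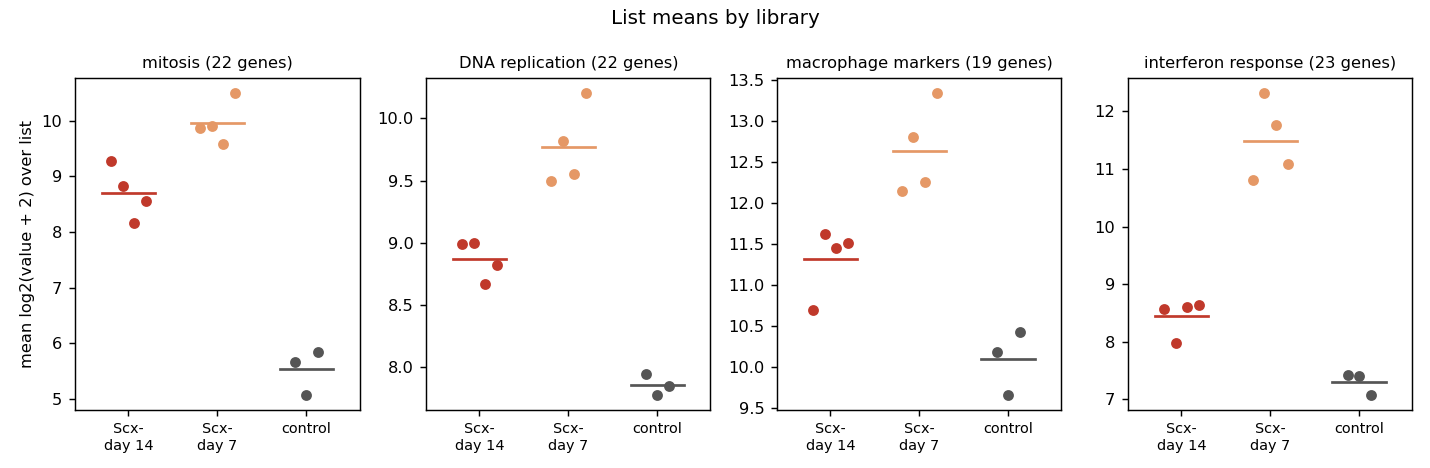
Mean log2(value + 2) over the tested members of 4 gene lists in Scx- day 14, Scx- day 7 and control libraries, 1 point per library with a bar at the mean. In each list the Scx- day 14 libraries lie above the controls and below the Scx- day 7 libraries, and the gap to day 7 is widest for the interferon list.

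The authors' deposited table for the same libraries holds 15951 genes, of which it calls 5101, with 2906 higher and 2195 lower in Scx- day 14. Among 15906 genes in both, 4862 were called in the authors' deposited table and here, all with the same sign, which is 68.4% of the calls here and 95.4% of the authors' own. Both rest on the same libraries and are not independent. In the authors' deposited table Scx changed by -6.96 ± 0.57, Postn by 6.27 ± 0.44, Mmp13 by 8.15 ± 1.14 and Tnmd by 1.12 ± 0.68 on the log2 scale, the last with an adjusted p of 0.219. Some genes named above as called were not called there. Among them were Asb18 (log2 change -2.96 ± 1.48 there), Col4a3, Mx1, Cilp, Thbs4, Tgfb2 and Igfbp5. Their adjusted p in the authors' table was 0.118, 0.0615, 0.285, 0.162, 0.0531, 0.0649 and 0.106 in that order.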

How the data were processed

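RNA of plantaris tendons was sequenced at a university core with standard Illumina libraries, per the labels' protocols. FastQC, STAR, DESeq2 and the mouse build mm10 are named, without versions or roles, per the submitters' processing notes, and the quantifier is not given in the sources used here. The deposited table holds a signal per gene and library that is not whole numbers. It was therefore not put through a count test, and depth in reads is unknown. The authors' deposited table of comparisons gives log2 fold changes, their standard errors (a score here) and adjusted p-values, and is cited only by name.

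Medians of ratios, taken over 13703 genes with no 0 in any library, set the scale of each library. Of 24972 genes, the 16625 that reached 10 in 3 or more libraries were tested. limma 3.58.1 in R 4.3.3 was fitted to log2(value + 2) over all 19 libraries in 5 groups, with trend and robust moderation and Benjamini-Hochberg adjustment at 0.05, so fold changes of low genes are understated. The fit was tested on simulated data with independent noise and few changed genes, which cannot test the scaling or the split of muscle signal between replicates. Alternatives covered scaling, pseudocount, filter, moderation, sample weights, the groups in the fit, a muscle covariate, a replicate block and each library left out. Nothing in the labels says that replicates came from separate animals, so p-values measure the spread between these samples.

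The comparison and all gene lists were chosen with earlier results of these data known. Named genes were Scx, Mkx, Tnmd, Fmod, Col1a1, Col1a2 and Col3a1, the 15 largest rises and 15 largest falls past the threshold with groups that do not overlap, a mean of at least 5 ppm and a regular symbol, from every list up to 5 genes past the threshold and up to 2 short of it, and 5 genes from each of the other contrasts. That made 274 genes, and 60 more were named after their values were seen: Acadvl, Adamts4, Adgre1, Adipoq, Alox5, Bglap, Bgn, Bmp1, Cd3e, Cd79a, Cdh5, Cilp, Col11a2, Col22a1, Col24a1, Col6a1, Col6a3, Cpa3, Cx3cr1, Eno1, Eya2, Fbn1, Fkbp10, Hk1, Igf1r, Igfbp5, Loxl2, Loxl3, Loxl4, Ltbp2, Mcm2, Mki67, Mmp2, Ms4a1, Myog, P3h2, Pax7, Pcolce2, Pgam1, Piezo1, Plod1, Ptgs1, Ptgs2, Serpinh1, Sp7, Sparc, Tek, Tgfb1, Tgfb2, Tgfbr2, Thbs1, Thbs2, Thbs4, Timp1, Timp4, Tnf, Tpi1, Wwtr1, Xbp1 and Yap1. Some genes that the rule names are not reported here. Polyamine genes were also chosen after their values were seen.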

Additional observations from a re-analysis of the deposited data

Results flagged for a closer look

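For 341 values, those of the reported named genes and of the list shares, the 4 Scx- day 14 libraries were checked for 1 that stands apart. In 21 the gap from the highest or lowest library to the next was a larger share of the group's range than Dixon's critical value for 4 samples, and chance alone gives about 1 in 20. The 21 of 341 are near that share, so they are listed as a description and not as a result about the replicates. The check used values without logs, for which the 1 in 20 is only a rough guide. Replicate 1 stood apart in Col2a1, Col9a3, Col9a1, Retnlg, Hdc, Cnn1, Myh7, Col11a2 and Mki67, with the gap taking 0.984, 0.9, 0.836, 0.843, 0.894, 0.833, 0.853, 0.965 and 0.837 of the range in that order. Replicate 2 stood apart in Nkg7 and Cd79a, with the gap taking 0.942 and 0.884 of the range in that order. Replicate 3 stood apart in Chad, Cilp2, Mfap4, Eln, Tgfb3, C4b and Thbs4, with the gap taking 0.973, 0.927, 0.853, 0.919, 0.871, 0.852 and 0.848 of the range in that order. Replicate 4 stood apart in Cers1, Epyc and Ms4a1, with the gap taking 1, 0.869 and 1 of the range in that order. The high Col2a1 of replicate 1 was 14846, where the other 3 had 251, 12.2 and 101. The high Chad of replicate 3 was 7576, where the other 3 had 401, 452 and 592.

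Differences between groups under the shared controls were tested directly with limma over all genes. Of the reported named genes, 12 differed between Scx- day 14 and Scx+ day 14 at an adjusted p under 0.05. Over all tested genes the share was 0.517%. Some genes were named because they passed this comparison or after their values were seen, so the count of 12 is not a result about the named genes. The log2 changes were Scx -9.43, Tnmd -3.63, Cthrc1 -1.95, C1qtnf3 -2.82, Gas2 -2.42, Kcnj15 -2.05, Zfp185 -2.05, Eya2 -1.9, Loxl4 -1.39, Plod1 -0.95 and Thbs4 -1.94 for those lower in Scx- day 14 and Hdc 2.33 for the 1 higher. The Hdc call was lost without Scx+ day 14 replicate 1 or 2 or without Scx- day 14 replicate 1, 2 or 4 (adjusted p up to 0.238).

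Between Scx- day 14 and Scx- day 7, 41 of the reported named genes differed, where 5.25% of all tested genes did. This count too includes genes named because they passed the comparison or after their values were seen. Those higher in Scx- day 14 had log2 changes of Agtr2 1.52, Aqp4 3.07, Ltbp4 1.48, Mmp3 1.84, Herpud1 0.68, Ank 0.87, Mylk4 3.55 and Lrrc38 3.17. Those lower were, among interferon genes, Oas3 -4.74, Mx1 -5.31, Irf7 -3.63, Zbp1 -3.04, Ifit1 -3.98, Stat2 -1.84 and Oasl2 -3.04. The other genes lower in Scx- day 14 had log2 changes of Adam12 -1.44, Tnc -1.72, P4ha1 -0.9, P4ha2 -0.92, Wisp1 -1.55, Itga5 -0.67, Cdt1 -0.93, Uhrf1 -1.86, Rrm1 -0.91, Pdia4 -0.83, Hsp90b1 -0.86, Ms4a7 -1.56, Fcgr1 -2.48, Csf1r -1.16, Mrc1 -1.39, Csf3r -1.55, Nkg7 -2.38, Ccl7 -2.18, Ctss -1.69, Ifi30 -1.06, Acta2 -1.41, Kcnj15 -1.26, Adgre1 -1.42, Eno1 -0.88, Ltbp2 -1.89 and Pgam1 -0.83. Most of these calls outside the interferon list were lost when 1 library was left out. Muscle fibre genes took 11.5 ± 8.05% of the signal in Scx- day 14 and 3.34 ± 2.58% in Scx- day 7 (SD, n = 4 each), and 540 genes differed with the muscle level as a covariate.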

How the results depend on the processing

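Scx remained called under every alternative, at log2 changes of -6.82 to -5.04. No named gene changed sign where it was called in the main fit or in the alternative. A change of sign in a gene called in neither was not counted. The scaling set the balance of calls. Library totals gave 7209 higher and 1359 lower and 1349 genes against Scx- day 7, and the values as deposited gave 2783 higher and 5128 lower, 993 genes against Scx+ day 14 and 2604 against Scx- day 7. With only the groups compared in the fit, which leaves fewer samples to estimate the spread, 4237 genes were called against the controls (2385 higher, 1852 lower), 9 against Scx+ day 14 and 317 against Scx- day 7. With the muscle level as a covariate 42 genes differed from Scx+ day 14 and 540 from Scx- day 7, with sample quality weights 48 differed from Scx+ day 14, and without Scx- day 14 replicates 1 and 2 the numbers were 8 and 281. The cause was not tested. Leaving out 1 library at a time gave 5890 to 7992 genes against the controls (3508 to 4565 higher, 2348 to 3427 lower), 22 to 200 against Scx+ day 14, 370 to 1481 against Scx- day 7, and -6.56 to -6.11 for Scx. Other settings, with their counts against the controls, were a trimmed mean (7285), a pseudocount of 0.5 (7387) or 10 (7170), no filter (7171), a stricter filter (6592) and no robust moderation (7341). Of 334 named genes, 41 lost their call against the controls with sample quality weights and 6 gained it. Losses and gains were 35 and 4 with only the groups compared, 22 and 30 under library totals, and 18 and 8 as deposited. These losses are not marked at the genes above. Samples share replicate numbers, and whether these numbers pair them was not settled. Over all tested genes, same-numbered Scx- day 14 and control libraries deviated with correlations of -0.06, 0.01 and -0.08, and other pairs with -0.15 to 0.14. Other groups were not compared in this way. With the replicate number as a block 6513 genes were called (3846 higher, 2667 lower), 58 against Scx+ day 14 and 621 against Scx- day 7. Scx was then at -6.10 ± 0.27, where the fit without the block gave -6.33 ± 0.42. Depth in reads is unknown, and the 3 controls limit the precision.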

Other observations

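Of 10 genes of polyamine metabolism, chosen after their values were seen and in no list above, 4 fell and 2 rose. Over all tested genes 18.3% fell and 25.5% rose. Amd2, which encodes an S-adenosylmethionine decarboxylase, had 2807, 2223, 2829 and 3301 in the Scx- day 14 libraries, against 62192, 95135 and 92033 in the controls (limma log2 change -4.88 ± 0.2, adjusted p = 5.2e-11). Amd1, a near-identical copy, was listed at 0 in all 7 libraries of both groups, so the split between the copies is uncertain. Smox, which oxidises spermine, had 919.7, 1055, 1130 and 1057 in the Scx- day 14 libraries, against 18629.9, 23560.1 and 26883 in the controls (log2 change -4.45 ± 0.16, adjusted p = 4.99e-12). The groups did not overlap in either gene. Sms, spermine synthase, and Odc1, ornithine decarboxylase, also fell (log2 changes -1.79 ± 0.39 and -1.05 ± 0.25). Srm, spermidine synthase, and Sat1, which acetylates polyamines for export, rose (log2 changes 1.1 ± 0.2 and 1.3 ± 0.27). Azin1, Oaz1 and Paox did not pass (log2 changes 0.03 ± 0.24, 0.22 ± 0.29 and 0.63 ± 0.38, adjusted p = 0.928, 0.547 and 0.184). Muscle fibre signal was lower in the same Scx- day 14 libraries, and its part was not tested.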
